A study of Mus musculus with 6 samples.

Results

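Galectins are small lectins that bind galactose-containing sugars on glycoproteins and glycolipids. They are made in the cytosol, leave the cell without a signal peptide, cross-link receptors at the cell surface, and inside the cell they mark damaged endosomes and lysosomes whose inner sugars have become exposed. Galectin-3 binding protein, also called Mac-2 binding protein, is a secreted glycoprotein that the liver contributes to plasma, and it carries the sugars that galectin-3 binds. The 6 genes described here are *Lgals1*, *Lgals3*, *Lgals4*, *Lgals8*, *Lgals9* and *Lgals3bp*. They were listed by symbol, matched to their Ensembl identifiers, and read in each of 6 RNA sequencing libraries, out of 55487 genes with a count row and 12741 genes with enough counts to test. All 6 passed that filter on low counts. The list was selected on measured values of these libraries, namely levels and the C75S against WT difference, so both are given for the 6 genes as a description, with no test.

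The libraries were made from hepatocytes, the liver's chief epithelial cell, of adult mice aged 6 to 8 weeks, and the RNA was taken from the isolated cells 48 h later. In the AEG-1-C75S group (3 libraries) the mice were homozygous for AEG-1-C75S, in which serine replaces a cysteine of AEG-1, in a study on palmitoylation of that protein. The WT group (3 libraries) came from the same matings of heterozygotes, and every sample carries the treatment label Control. How the C75S allele was made, and whether each library had a mouse of its own, is not given in the sources used here, so n counts libraries and the spread between them may be partly technical. The counts assigned to genes summed to between 16944723 and 21044292 a library. Levels of a gene are given in CPM, its counts per 1e+06 counts of the scaled library size, and 3 counts corresponded to 0.142 to 0.172 CPM. *Mtdh*, which encodes AEG-1, was at 200 ± 10.5 CPM (C75S) and 197 ± 5.18 CPM (WT; mean ± SD, n = 3 each), and gene counts do not read the altered codon.

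The labelled cell type was checked against marker genes. *Alb* ranged from 55643 to 66472 CPM (C75S) and from 63097 to 70067 CPM (WT), and none of the 10 hepatocyte markers was at 0. Markers of other liver cells were sparse. Of 12 Kupffer cell and macrophage markers, 2 had enough counts to test, and *Adgre1* had 1 read in all 6 libraries together.

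Sequence around the start sites is shown for *Lgals9*, which held the interferon motif described next, for *Lgals3bp*, which held a variant of it with a longer spacer, and for *Lgals3*, which differed most between the genotypes. They were chosen after their values were seen. The windows run from 250 bases before to 50 bases after each RefSeq start on GRCm38.p6, and 5 of the 6 genes had one, all except *Lgals1*. Motifs were searched on both strands: a pair of GAAA sites on the same strand with 2 bases between them (the core of the interferon-stimulated response element), the same pair with 3 bases between them (a spacing added after the sequences were seen), the AP-1 site TGANTCA and the SP1 site GGGCGG. The capitals mark the match at the position given, and each line reads in the direction of the gene.

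*Lgals9*, 55 to 46 bases before the start, chr11:78984960-78984989, minus strand: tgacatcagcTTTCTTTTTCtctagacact
*Lgals9*, 16 to 25 bases after the start, chr11:78984890-78984919, minus strand: atagctgtggTTTCTGTTTCctagctcagc
*Lgals3bp*, 17 to 7 bases before the start, chr11:118401957-118401985, minus strand: gtgttttctGAAAATCGAAActaggtgag
*Lgals3*, 7 to 2 bases before the start, chr14:47373841-47373870, plus strand: agggatgctgccCCGCCCtgggagggcggg

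*Lgals9* held 2 matches to the GAAA pair with 2 bases between, both on the opposite strand, and was the single member with that motif. It is present in 3.44% of the 32851 mouse windows in the table. *Lgals3bp* held 1 match to the spacing of 3 bases, which is present in 2.75% of windows. Neither spacing was found in the windows of *Lgals3*, *Lgals4* or *Lgals8*. *Lgals3* held 2 matches to GGGCGG and *Lgals4* 1, a motif of 35.7% of all windows, and no member held TGANTCA, which is in 7.81%. The second match in *Lgals3*, 5 to 10 bases after the start, lies in the stretch shown, in small letters. In GENCODE M21 the *Lgals3bp* and *Lgals3* stretches and the second *Lgals9* stretch are exonic and outside the coding sequence, whereas the first *Lgals9* stretch lies upstream of the gene. These are matches of letters, and binding of a factor was not measured.

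*Lgals9* was the most abundant of the 6 transcripts per length and *Lgals4* the least. Levels of different genes are compared as TPM, which divides counts by the joined length of a gene's exons and scales each library to the same total. In WT the order was *Lgals9* at 1044 ± 43.4 TPM, *Lgals1* at 483 ± 70.6, *Lgals3bp* at 200.4 ± 1.37, *Lgals8* at 112 ± 6.16, *Lgals3* at 74.6 ± 5.50 and *Lgals4* at 9.77 ± 0.86 (mean ± SD, n = 3). Each of these neighbours was separated in WT, with every library of one above every library of the next. In C75S the order was the same down to *Lgals3bp* (176 ± 10.5 TPM), after which *Lgals3* at 118 ± 10.9 TPM and *Lgals8* at 111 ± 9.41 TPM overlapped. *Lgals9* stood above 99.3% of tested genes in WT, *Lgals1* above 98.5%, and *Lgals4* above 39.5%. Lengths of the longest transcript, or counts taken without regard to strand, left all 6 places unchanged in both genotypes.

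**Figure D1:**
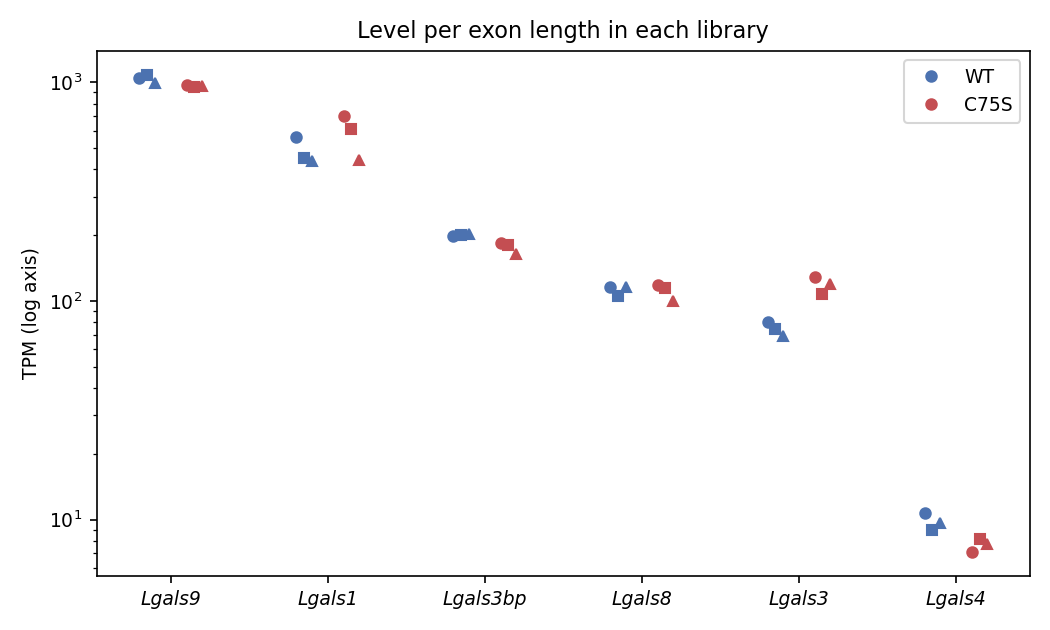
Level per exon length (TPM, log axis) of the 6 genes in each library, WT in blue and C75S in red, with circle, square and triangle for replicates 1, 2 and 3. *Lgals9* is highest in all 6 libraries and *Lgals4* lowest, and *Lgals3* lies below *Lgals8* in WT and overlaps it in C75S.

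Summed over the 6 genes, the level was 1793 to 2113 TPM in C75S and 1831 to 2017 TPM in WT, so the genotypes overlapped in the total. *Lgals9* made up 49.2% ± 3.98 of that sum in C75S and 54.3% ± 2.25 in WT, and *Lgals1* 29.7% ± 4.58 and 25.1% ± 2.55. *Lgals3* made up 6.06% ± 0.61 (C75S) and 3.87% ± 0.10 (WT), with SD over 3 libraries each.

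*Lgals3*, on chromosome 14 (ENSMUSG00000050335, 47367751 to 47386160, plus strand, GENCODE M21, GRCm38), encodes galectin-3, the chimera-type galectin, in which 1 sugar-binding domain is joined to a long proline- and glycine-rich tail. It was measured at 78.5, 66.9 and 76.9 CPM in C75S replicates 1, 2 and 3, and at 50.1, 46.8 and 43.7 CPM in the WT replicates. All C75S libraries were above all WT libraries, and the lowest C75S value lay above the highest WT value by more than the SD of either genotype (6.30 and 3.19 CPM). That gave a log2 fold change of 0.66 (SE 0.07), a level 1.58 times that of WT. Of all tested genes, 96.5% had a smaller change in size. In the 6 fits that each left out 1 library, the estimate ranged from 0.61 to 0.73.

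*Lgals3bp*, on chromosome 11 (ENSMUSG00000033880, 118392751 to 118402092, minus strand), encodes the secreted partner of galectin-3 and belongs to the scavenger receptor cysteine-rich family. It was at 172, 172 and 163 CPM in the C75S libraries and at 190.3, 193 and 195 CPM in those of WT. Every C75S library was below every WT library. The difference was small, with a log2 fold change of -0.19 (SE 0.05), a level 0.877 times that of WT. *Lgals3bp* was also among the genes with the lowest estimated spread between replicates. Its biological coefficient of variation in edgeR was 4.41%, and 1.93% of tested genes had a smaller one. That value estimates the spread beyond counting noise and is moderated towards that of other genes. The observed SD of its CPM was 3.10% of the mean in C75S and 1.24% in WT.

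The transcripts of galectin-3 and of its binding partner differed between the genotypes in opposite directions within the same libraries, and protein was not measured. The ratio of *Lgals3* to *Lgals3bp* in TPM was 0.699, 0.596 and 0.723 in C75S and 0.403, 0.371 and 0.344 in WT, with means of 0.672 ± 0.07 and 0.372 ± 0.03 (SD, n = 3 each). The genotypes did not overlap in this ratio, which is made from the 2 differences just described and is not a further observation.

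*Lgals1*, on chromosome 15 (ENSMUSG00000068220, 78926725 to 78930465, plus strand), encodes galectin-1, a prototype galectin whose single-domain subunits pair. It was at 209, 186 and 138 CPM in the C75S libraries and at 171, 138 and 134 CPM in those of WT. The genotypes overlapped, since C75S replicate 3 lay at the level of WT replicates 2 and 3, and WT replicate 1 lay between C75S replicates 2 and 3. The estimate was 0.27 (SE 0.20) on the log2 scale. *Lgals1* differed most between replicates of all 6 genes, with a moderated biological coefficient of variation of 16.9%, larger than that of 85.2% of tested genes. Its estimate fell to 0.14 without C75S replicate 1 and rose to 0.42 without C75S replicate 3.

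The other 3 genes encode tandem-repeat galectins, in which a linker joins a pair of unlike sugar-binding domains. *Lgals9*, on chromosome 11 (ENSMUSG00000001123, 78962974 to 78984946, minus strand), encodes galectin-9, known as an immune regulator and as a ligand of the receptor TIM-3. It was at 677, 683 and 714 CPM in the C75S libraries and at 752, 785 and 726 CPM in those of WT. The genotypes did not overlap, but C75S replicate 3 and WT replicate 3 were close, and the log2 fold change was -0.13 (SE 0.05). *Havcr2*, which encodes TIM-3, had 4 reads in all WT libraries together and 0 in C75S.

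*Lgals4*, on chromosome 7 (ENSMUSG00000053964, 28833854 to 28841708, plus strand), encodes galectin-4, best known from the epithelium of the gut. It had 94, 134 and 117 counts in C75S and 175, 144 and 157 in WT, which gave 5.40, 6.36 and 6.26 CPM against 8.31, 7.02 and 7.62 CPM. C75S was below WT in all libraries, with a log2 fold change of -0.35 (SE 0.15), the widest error but one among the 6 genes and the one with the fewest counts. *Lgals8*, on chromosome 13 (ENSMUSG00000057554, 12439415 to 12464944, minus strand), encodes galectin-8, which detects broken vesicles. It was at 143, 142 and 129 CPM in the C75S libraries and at 143, 131 and 145 CPM in those of WT. The values overlapped fully, with a log2 fold change of -0.02 (SE 0.05). *Lgals8* shares 155 exonic bases with *Heatr1* on the opposite strand, and counting without regard to strand kept 92.1% of its reads. For the other 5 genes that share lay between 100% and 100.01%.

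**Figure D2:**
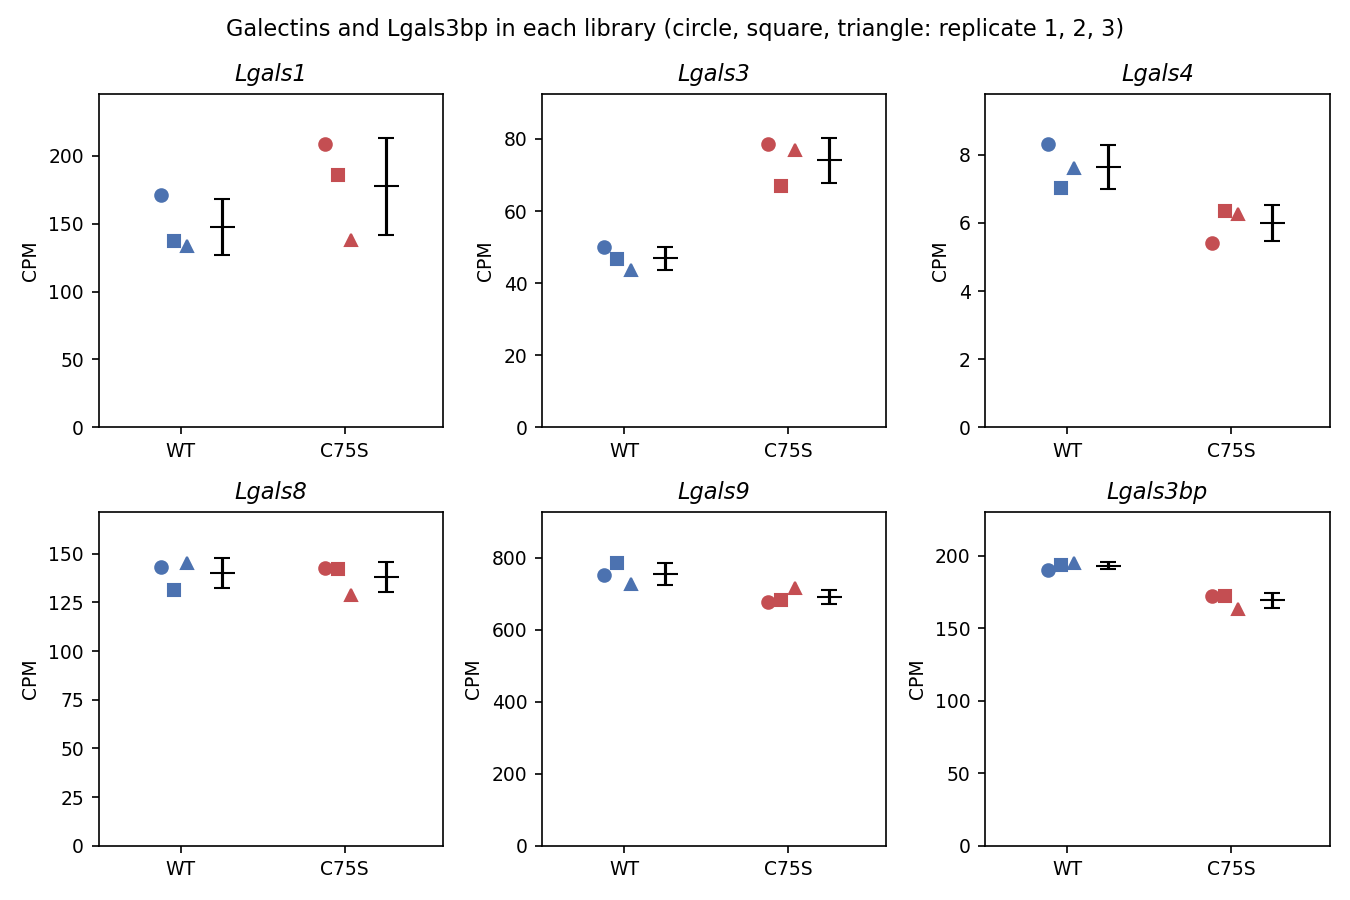
Scaled counts (CPM, axes from 0) of each gene in every library, with circle, square and triangle for replicates 1, 2 and 3 and a bar for mean and SD of 3 libraries. *Lgals3* is higher in all C75S libraries, *Lgals3bp*, *Lgals4* and *Lgals9* are lower in all, and *Lgals1* and *Lgals8* overlap.

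For context, edgeR's quasi-likelihood test called 396 of 12741 genes at a Benjamini-Hochberg adjusted p under 0.05, which is 3.11% of them. Of the 6 members 2 were called, *Lgals3* among the 1.74% of genes called higher and *Lgals3bp* among the 1.37% called lower, and nothing is read from that count, because this comparison chose the list. Genotypes without overlap were found for 4 of the 6 members and for 18.0% of all tested genes. The member above WT was 1 beside 9.02% of all genes, and the members below were 3 beside 8.96%. Nothing is read from these counts either, for the same reason. Across all genes the central 90% of log2 fold changes lay between -0.375 (5th percentile) and 0.403 (95th percentile).

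**Figure D3:**
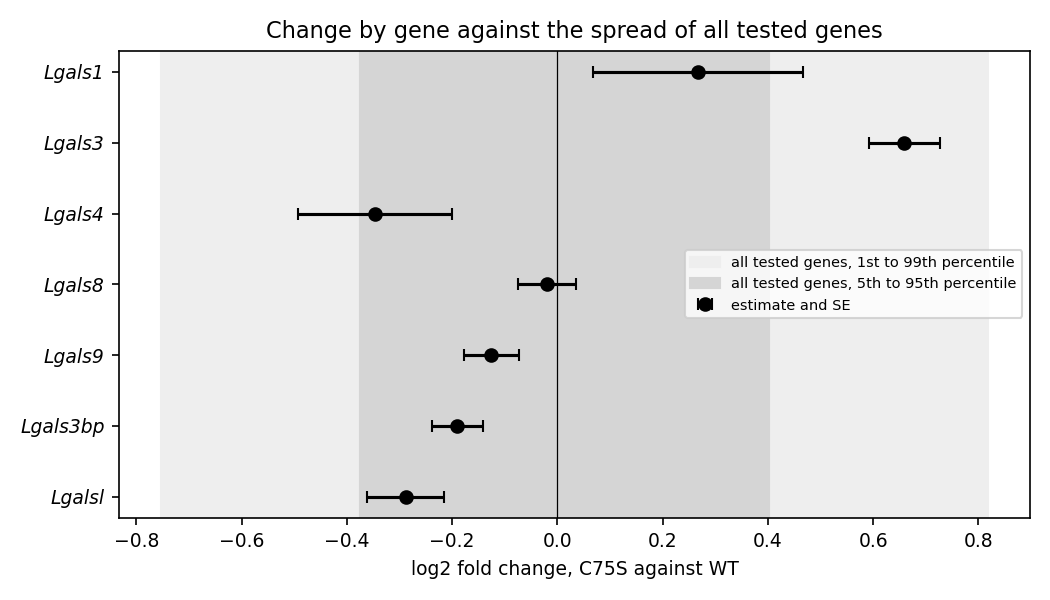
Log2 fold change of C75S against WT with its SE for the 6 genes and for *Lgalsl*, over bands that hold all tested genes from the 1st to the 99th and from the 5th to the 95th percentile. *Lgals3*, at 0.66, is the single gene shown that lies outside the inner band, and *Lgals4* lies close to its lower edge.

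**Figure D4:**
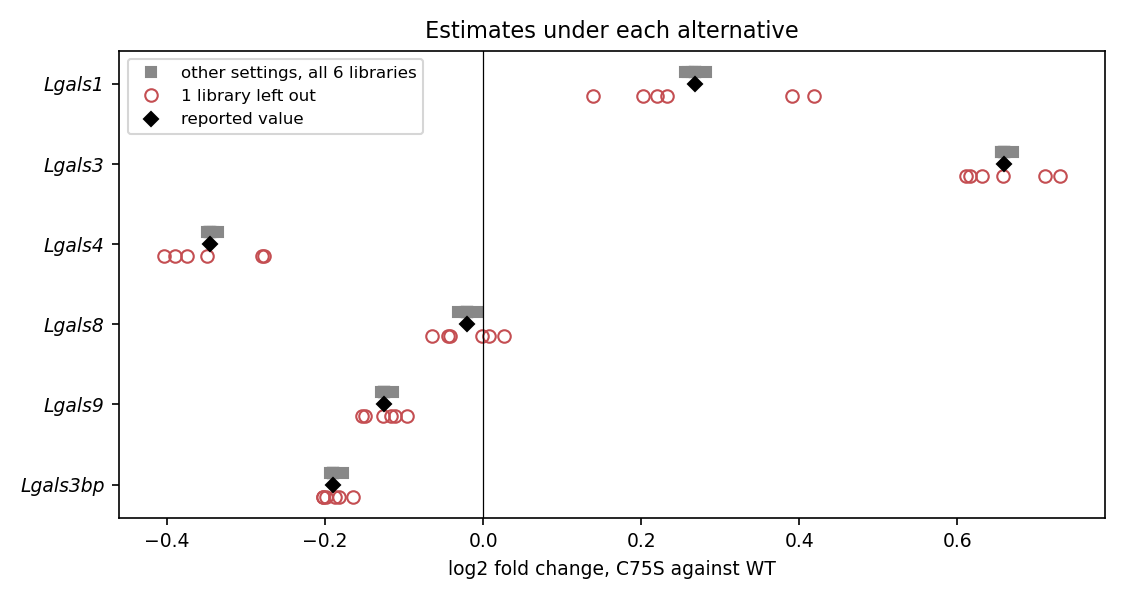
Log2 fold change of the 6 genes under each alternative, with the reported value as a diamond, 9 fits on all 6 libraries as squares and 6 fits that left out 1 library as open circles. *Lgals1* moved most, between 0.14 and 0.42, and *Lgals8* changed sign around 0.

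Related genes, listed by function, were tested in the fit across all genes, in which 1709 of the 12741 genes had an unadjusted p under 0.05 and 6259 had estimates above 0. Among 6 other genes of the galectin family, *Lgalsl*, which encodes a galectin-related protein not known to bind sugar, was the one with enough counts to test. *Lgalsl* (ENSMUSG00000042363, chromosome 11, 20823576 to 20831056, minus strand) was at 32.3, 33.8 and 30.7 CPM in the C75S libraries and at 41.3, 39.96 and 36.9 CPM in those of WT. All C75S libraries were below all WT libraries, and it fell by 0.29 on the log2 scale (SE 0.07, edgeR adjusted p = 0.0264). That call was lost without C75S replicate 1 (adjusted p = 0.0809), C75S replicate 3 (0.122), WT replicate 1 (0.0893) or WT replicate 2 (0.112). *Lgals2*, *Lgals7*, *Lgals12* and *Grifin* had 0 counts in all 6 libraries, and *Lgals6* is not in the annotation used.

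The enzymes that build galectin ligands showed no called change. Of 21 listed genes for N-glycan branching and poly-LacNAc chains, 15 could be tested, and edgeR, DESeq2 and limma-voom each called 0, with 0 at an unadjusted p under 0.05. Their median log2 fold change was -0.002, beside -0.003 over all genes tested. *Man2a1*, a Golgi mannosidase, was the most abundant at 315 ± 14.8 CPM (C75S) and 309 ± 10.7 CPM (WT). *Mgat1*, which starts complex N-glycans, was at 135 ± 5.67 and 139 ± 4.26 CPM. *Mgat5*, which makes the branch that galectin-3 favours, was at 13.0 ± 0.66 and 12.3 ± 2.27 CPM (SD, n = 3 each). Of 10 listed genes for capping galactose with sialic acid, 8 could be tested, with 0 called by edgeR, DESeq2 or limma-voom and 1 at an unadjusted p under 0.05. *St3gal1* was at 459 ± 66.6 and 475 ± 62.4 CPM and *St3gal5* at 100.5 ± 15.8 and 122 ± 13.2 CPM in C75S and WT, both with overlapping genotypes.

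Among 25 glycoproteins known to be bound by galectins, 23 could be tested, 1 was called, beside 3.11% of all genes, and 17 had estimates above 0, beside 6259 of 12741. Their median was 0.06. The called gene was *Itga3*, the integrin alpha 3 subunit, a laminin receptor chain (ENSMUSG00000001507). It was at 59.0, 58.9 and 53.7 CPM in the C75S libraries and at 45.3, 42.3 and 42.1 CPM in those of WT. The genotypes were well apart, and *Itga3* rose by 0.40 on the log2 scale (SE 0.06, edgeR adjusted p = 0.000322), a call kept in each of 15 alternative fits. *Fn1*, fibronectin, the most abundant of the list, was at 9895 ± 1014 and 10454 ± 672 CPM, and *Bsg*, basigin, at 1456 ± 186 and 1402 ± 76.4 CPM. Unadjusted p under 0.05 was reached by 6 of the 23, beside 1709 of 12741 genes.

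Of 16 genes that act with galectins at damaged lysosomes, 15 could be tested, with 0 called by edgeR, DESeq2 or limma-voom and 2 at an unadjusted p under 0.05. *Sqstm1*, the autophagy receptor p62, was at 1064 ± 66.4 CPM (C75S) and 1050 ± 31.5 CPM (WT), and *Pdcd6ip*, an ESCRT adaptor, at 396 ± 3.31 and 390 ± 10.6 CPM. In the scavenger receptor cysteine-rich family, to which *Lgals3bp* belongs, 4 of 16 listed genes could be tested, again with 0 called by any of the 3 tools and 1 at an unadjusted p under 0.05. *Loxl2* was at 94.4 ± 3.32 and 84.6 ± 6.04 CPM and *Loxl4* at 46.5 ± 5.56 and 42.2 ± 2.03 CPM.

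*Lgals9* and *Lgals3bp* are known to be raised by interferon, so interferon-stimulated genes, listed with earlier results of these data known, were set beside them. Of 30 listed genes 29 could be tested, and 4 were called lower and 0 higher, beside 1.37% and 1.74% of all genes. An unadjusted p under 0.05 was found for 12 of the 29, beside 1709 of 12741, and the median log2 fold change was -0.13. DESeq2 called 3 of the list and limma-voom 2. Estimates below 0 were found for 26 of the 29, beside 6482 of all 12741 genes. *Ifi44* fell from 8.00 ± 0.43 CPM (WT) to 3.96 ± 0.36 CPM (C75S; edgeR adjusted p = 0.000228), a call kept in each alternative. *Tap1*, a peptide transporter for MHC class I, fell from 22.4 ± 3.43 to 16.5 ± 0.48 CPM (edgeR adjusted p = 0.0158), a call lost when replicate 1 of either genotype or WT replicate 2 was dropped. *Bst2*, tetherin, fell from 193 ± 13.4 to 167 ± 7.70 CPM (edgeR adjusted p = 0.0372), a call lost with limma-voom, with library-size scaling and when replicate 2 or 3 of either genotype was dropped. *Rtp4* fell from 11.6 ± 1.04 to 8.45 ± 1.24 CPM (edgeR adjusted p = 0.0477), a call lost with DESeq2, limma-voom and library-size scaling, and when any library other than C75S replicate 1 was dropped. *Trim25*, an abundant member, was at 126 ± 2.99 CPM (C75S) and 139 ± 3.95 CPM (WT) and did not pass. The count of 4 depended on single libraries, with 1 call left when WT replicate 2 was dropped and 2 when replicate 3 of either genotype, C75S replicate 2 or WT replicate 1 was. In the RefSeq windows, the GAAA pair with 2 bases between was present for 9 of 23 listed genes with a window and for 1079 of 27025 genes in all. The part of interferon in the *Lgals9* and *Lgals3bp* values was not tested.

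**Figure D5:**
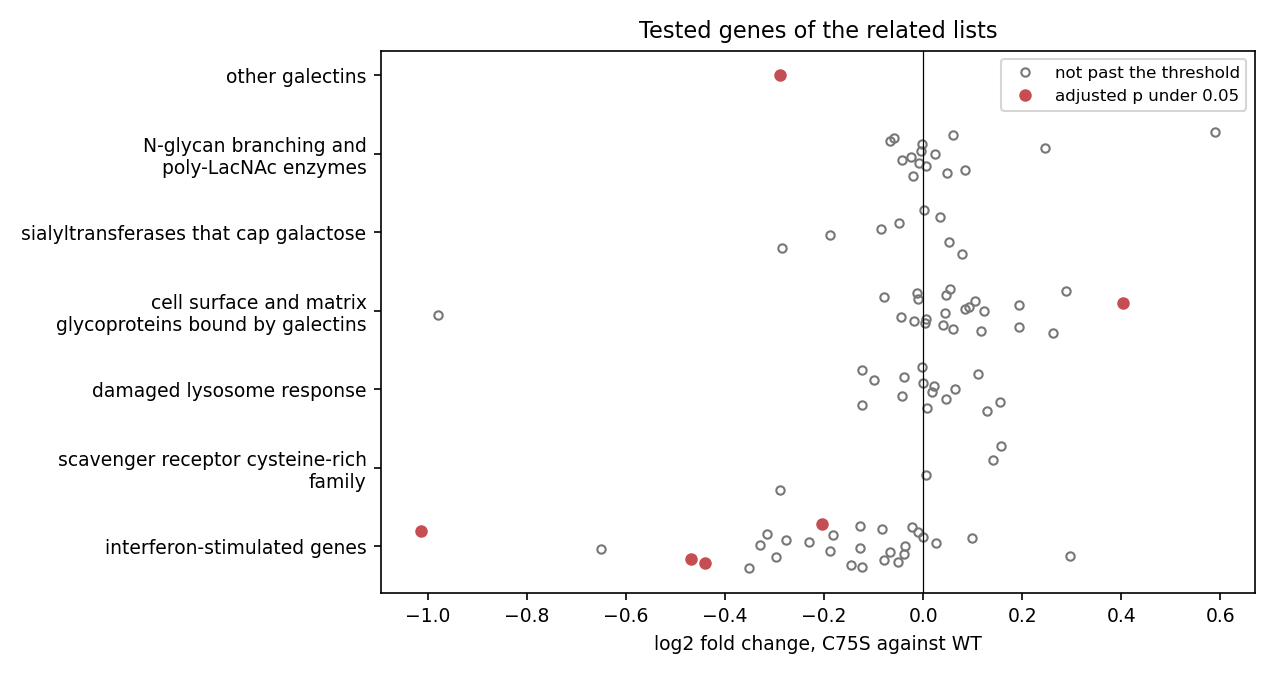
Log2 fold change of C75S against WT for each tested gene of the 7 related lists, filled where the edgeR adjusted p was under 0.05. Filled points are *Lgalsl* at -0.29, *Itga3* at 0.40 and 4 interferon-stimulated genes, all below 0.

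Galectins are also made by other liver cells, and in bulk RNA fewer cells of a type and less RNA per cell cannot be told apart. Kupffer cell and macrophage markers summed to 97.5 to 141 CPM (C75S) and 105 to 135 CPM (WT), nearly all of it *Cd68*, and 0 of the 2 testable ones (*Cd68* and *Csf1r*) were called by edgeR, DESeq2 or limma-voom, with 0 at an unadjusted p under 0.05. Endothelial markers summed to 37.6 to 48.4 and 36.2 to 47.7 CPM, with 0 of 7 called by any of the 3 tools and 2 at an unadjusted p under 0.05. *Stab2*, at 24.9 ± 4.88 CPM (C75S) and 26.4 ± 5.75 CPM (WT), made up most of that sum. The median log2 fold change of the 7 was 0.41, beside -0.003 over all genes, and 5 had estimates above 0, beside 6259 of 12741 genes. No overlap between the genotypes was found for 3, beside 18.0% of all tested genes. Those 3 were *Pecam1*, *Kdr* and *Lyve1*, named after their values were seen. All C75S libraries were above WT in each, as for *Lgals3* and for 9.02% of all tested genes. *Pecam1* was at 2.87, 2.89 and 3.80 CPM in the C75S libraries and at 1.14, 2.58 and 2.18 CPM in those of WT (log2 difference 0.70, edgeR adjusted p = 0.208). *Lyve1* was at 2.99, 2.32 and 2.09 CPM against 1.66, 1.17 and 1.26 CPM (0.85, edgeR adjusted p = 0.131), and *Kdr* at 0.75, 0.90 and 1.07 CPM against 0.71, 0.49 and 0.49 CPM (0.69, edgeR adjusted p = 0.521). Stellate cell and fibroblast markers summed to 58.6 to 75.2 CPM (C75S) and 72.5 to 94.3 CPM (WT), with *Reln* as the most abundant. *Reln* was at 58.7 ± 8.70 CPM (C75S) and 75.2 ± 11.5 CPM (WT), with overlapping genotypes. The median log2 fold change of the 5 tested stellate cell and fibroblast markers was -0.047, and 3 had estimates below 0. Among them 1 of 5 was called, beside 3.11% of all genes. This was *Acta2*, which rose from 2.62 ± 0.53 to 4.65 ± 0.30 CPM (edgeR adjusted p = 0.0255). The call was lost when replicate 1 or 2 of C75S, or 2 or 3 of WT, was dropped. Cholangiocyte markers summed to 181 to 235 CPM (C75S) and 162 to 170 CPM (WT), without overlap, as *Lgals3* did. Their median log2 fold change was 0.22, and 3 of 6 had estimates above 0. Of the 6 tested 1 was called, beside 3.11% of all genes. This was *Krt19*, which rose from 5.47 ± 0.26 to 9.52 ± 1.22 CPM (edgeR adjusted p = 0.00151). *Spp1*, the largest part of the sum, was at 131 ± 25.8 CPM (C75S) and 91.0 ± 6.43 CPM (WT). *Cftr*, a defining cholangiocyte gene, had 0 counts in all libraries, and *Epcam* had 3 in C75S and 19 in WT. The part of endothelial cells and cholangiocytes in the *Lgals3* values was not tested. Hepatocyte markers held 1 called gene of 10, beside 3.11% of all genes. This was *Cyp2e1*, which rose from 92.0 ± 10.5 to 114 ± 3.64 CPM (edgeR adjusted p = 0.00908) and lost its call without WT replicate 3.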

How the data were processed

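RNA sequencing of hepatocytes gave 6 gene count tables, 3 for AEG-1-C75S and 3 for WT, grouped and numbered by the sample titles. Each deposited table gives raw read counts by Ensembl identifier, unstranded and for each strand; Trim Galore 0.6.6, STAR 2.7.9a and edgeR 3.36.0 and the builds mm10 and GRCm38 are named in the submitters' processing notes, and the annotation release is not given in the sources used here. The reverse-strand column was used and the 4 summary rows were dropped. Of 55487 gene rows, 55227 matched GENCODE M21 (GRCm38), which gave symbols, positions and exon lengths.

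Genes were filtered with filterByExpr (minimum count 10, minimum total 15), scaled with TMM and tested in edgeR 4.0.16 (R 4.3.3) by a robust quasi-likelihood fit on genotype, two-sided, with Benjamini-Hochberg adjustment over 12741 genes and a threshold of 0.05. An SE is the log2 fold change divided by the square root of F. The members and lists were chosen with earlier results of these data known. Named are the members, *Mtdh*, in each list the called genes (at most 4) and the 2 most abundant, and the 2 genes nearest to each member in pattern; others were named after their values were seen. Alternatives were DESeq2 1.42.0, limma-voom 3.58.1, scaling by RLE, by upper quartile or by library size, 2 other filters, unstranded counts, a replicate block and leaving out each library. The fits were tested on simulated data. BLAST 2.17.0 against GENCODE M21 transcripts was read by the best-scoring alignment of each other gene, of 100 bases or more on the same strand. Identity to a member was at most 88.3% in those alignments. Libraries of a genotype differed by more than counting noise (chi-square per degree of freedom 4.05 to 8.99). Promoter windows are from RefSeq, GRCm38.p6.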

Additional observations from a re-analysis of the deposited data

How the results depend on the processing

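Every fit kept the direction of *Lgals1*, *Lgals3*, *Lgals4*, *Lgals9* and *Lgals3bp*. For *Lgals3*, *Lgals4*, *Lgals9* and *Lgals3bp* the genotypes did not overlap. At a given scaling, leaving out 1 library could therefore not reverse their sign, and nothing is read from it. With 1 library left out the log2 fold change ranged from 0.14 to 0.42 for *Lgals1*, 0.61 to 0.73 for *Lgals3*, -0.40 to -0.28 for *Lgals4*, -0.06 to 0.03 for *Lgals8*, -0.15 to -0.10 for *Lgals9*, -0.20 to -0.16 for *Lgals3bp* and -0.02 to 0.05 for *Mtdh*. The *Mtdh* estimate was 0.02 over all libraries and -0.0219 without C75S replicate 1. The count of called members was 1 to 2 in those fits, and 1, without *Lgals3bp*, when replicate 2 or 3 of either genotype was dropped.

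The 396 calls became 201 when WT replicate 2 was dropped, 246 when WT replicate 3 was and 253 when C75S replicate 1 was, and at most 355 for any library; higher calls ranged from 129 to 193 and lower calls from 72 to 169. Without a filter beyond 1 count there were 283 lower calls, against 174. The cause was not tested.

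For the related lists, leaving out 1 library gave 1 to 5 calls for interferon-stimulated genes, 1 to 2 for cholangiocyte markers, and 0 to 1 for other galectins, sialic acid capping, hepatocyte markers and stellate cell markers. Interferon-stimulated genes had 2 calls with library-size scaling, 2 with limma-voom and 7 without a filter. Without a filter the sialic acid list had 1 call and the stellate cell list 2, and limma-voom called 2 cholangiocyte markers.

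Over all tested genes, same-numbered libraries of the genotypes did not deviate together (correlations 0.02, -0.04 and 0.03). With 3 libraries a group, this cannot settle whether the numbers pair the samples. For *Lgals1* the SE was 0.06 with a replicate block and 0.20 without it. With the replicate block, 480 genes were called, among them *Lgals1* in addition to *Lgals3* and *Lgals3bp* (3 members), 2 hepatocyte markers and 1 gene of sialic acid capping. Replicates 3 of both genotypes matched best, while the other 4 libraries did not match best with their own number.

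With 3 libraries a group and an SE of 0.15 for *Lgals4* and 0.20 for *Lgals1*, changes of that size were not resolved for these genes.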

Other observations

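The genes nearest to each member in pattern were sought among 9389 genes with a mean of at least 5 CPM. The measure was the root mean square difference of log2 CPM, centred on the gene's mean, over the 6 libraries. For *Lgals3* the nearest were *Tnfrsf23* (0.06) and *Spp2* (0.07), beside an SD of *Lgals3* over the libraries of 0.37. *Tnfrsf23* was at 14.7, 13.3 and 15.8 CPM in C75S and at 10.4, 9.94 and 8.88 CPM in WT. *Spp2* was at 7.35, 7.26 and 8.02 CPM in C75S and at 4.80, 4.68 and 4.32 CPM in WT.

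For *Lgals1*, whose libraries had an SD of 0.27, the nearest were *Fgd3* (0.06) and *Tinagl1* (0.08). *Fgd3* was at 85.0, 76.4 and 56.1 CPM in C75S and at 70.8, 61.7 and 59.7 CPM in WT, so C75S replicates 1 and 2 and WT replicate 1 were high in it as in *Lgals1*, together with an overlap of the genotypes.

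For *Lgals3bp* (SD 0.11) the nearest were *Amotl2* and *Dyrk2* at a difference of 0.02 each. For *Lgals4* (SD 0.22) they were *Cyp3a25* (0.04) and *Neat1* (0.05). *Lgals9* (SD 0.08) was followed most closely by *Slc25a51* and *Mapre3*, and *Lgals8* (SD 0.07) by *Zfp260* and *Ces2c*, again at 0.02 each. Every candidate gene was compared, so near matches are a description of these 6 libraries.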
